A study of Mus musculus with 27 samples.

Results

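Expression of 10 genes of the tuft cell eicosanoid and type 2 pathways was examined in the colonic epithelium of mice given the dioxin TCDD, which activates the aryl hydrocarbon receptor (AhR). They were Ltc4s, Alox5, Alox5ap, Hpgds, Ptgs1, Il25, Il17rb, Chat, Fyb and Plcg2, each matched by its Ensembl identifier, out of 46078 genes in the count files. They were chosen because of how their levels behaved over these same doses, so their levels and differences from vehicle are given as a description, without a test. Counts were available for 27 male C57BL/6 mice, 3 in each of 9 groups, which received sesame oil vehicle or TCDD by gavage at 1 of 8 doses (30, 10, 3, 1, 0.3, 0.1, 0.03 or 0.01 μg/kg) at intervals of 4 days over 28 days, starting at an age of 28 days. All 27 mice were of 1 strain and sex and were 56 days old at the end of the dosing. RNA came from scrapings of the epithelium, which hold every cell type scraped off with it, so a lower level could reflect fewer cells of a type or less RNA per cell, and these cannot be told apart. A filter on low counts kept 9 of the 10 genes among the 16496 tested, and Il25 was left out by it.

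Tuft cells are rare chemosensory cells of the gut lining that sense luminal metabolites and signal to immune cells and nerves. Upon stimulation they release interleukin-25 (Il25), which starts type 2 immune responses, and arachidonic acid products that act over short distances. 5-lipoxygenase (Alox5), with its activating protein (Alox5ap), makes leukotriene A4, which leukotriene C4 synthase (Ltc4s) joins to glutathione to give the cysteinyl leukotrienes. Cyclooxygenase 1 (Ptgs1) makes prostaglandin H2, which hematopoietic prostaglandin D synthase (Hpgds) turns into prostaglandin D2. Choline acetyltransferase (Chat) makes acetylcholine, another tuft cell product. Fyb encodes an adaptor protein and Plcg2 a phospholipase C of signalling downstream of immune-type receptors, and both are found in hematopoietic cells as well as in tuft cells. Mast cells, macrophages and other immune cells also express several of these genes.

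Gene counts totalled between 9305441 and 14371035 per mouse (median 11651026), and levels are given as CPM (library-scaled counts, with TMM scaling). A gene was called at an adjusted p under 0.05 by edgeR's quasi-likelihood test with a fold change of at least 1.5. Against vehicle, 0 genes were called at 0.01 to 0.3 μg/kg (766 to 1051 had an unadjusted p under 0.05), and 33, 115, 294 and 1016 (0.2, 0.697, 1.78 and 6.16% of those tested) at 1, 3, 10 and 30 μg/kg. The 7 listed epithelial markers, among them Epcam, summed to between 7550 and 8377 CPM in vehicle-treated mice. Their sum was 9299 to 9598 CPM at 10 μg/kg and 7938 to 10094 CPM at 30 μg/kg. At 30 μg/kg 6 of the 7 had a log2 fold change above 0 and 0 were called (3 had an unadjusted p under 0.05). All 5 listed AhR targets, Cyp1a1 among them, were higher at 30 μg/kg. The index barcodes fell into 2 sets that followed the dose: set 1 held 16 mice, all those below 1 μg/kg and 1 at that dose, and set 2 held the other 11, so differences from vehicle at 3 μg/kg and above and the index set cannot be told apart, while 3, 10 and 30 μg/kg lie in 1 set. The 3 mice at 1 μg/kg alone span both sets, so a fit with the index set as a term takes its effect from 1 mouse against 2, and its values are given with that limit. Genes of the circadian clock also followed the dose. The clock output gene Dbp was between 29.4 and 88.8 CPM in the 12 mice at 1 μg/kg and above and between 1.37 and 16.7 CPM in 14 of the 15 mice at lower doses, and the third mouse at 0.01 μg/kg stood apart at 60.0 CPM. Values without that mouse are given beside the correlations.

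Sequences around the RefSeq start site are shown for 4 genes, 3 that were lower at the highest dose and hold 1 of 2 motifs searched for, and Plcg2, which was higher and holds neither. Those of Il17rb and Plcg2 run from 250 bases upstream up to the start site. For Hpgds the sequence ends with the motif, and for Chat it is the 30 bases up to the end of the motif. All are on GRCm38.p6 from RefSeq, 5′ to 3′ on the strand of the gene. Capitals mark a match.
Hpgds (chr6:65144897-65144980, minus strand): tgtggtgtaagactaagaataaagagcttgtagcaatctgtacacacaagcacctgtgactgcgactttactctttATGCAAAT
Il17rb (chr14:30008897-30009146, minus strand): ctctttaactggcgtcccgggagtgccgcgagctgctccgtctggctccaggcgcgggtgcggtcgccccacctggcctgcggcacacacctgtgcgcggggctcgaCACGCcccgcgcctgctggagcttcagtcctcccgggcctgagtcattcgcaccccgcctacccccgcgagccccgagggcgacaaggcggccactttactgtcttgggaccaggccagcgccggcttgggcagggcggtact
Chat (chr14:32465907-32465936, minus strand): tgtcgcctgcaaatcaggacgctcaGCGTG
Plcg2 (chr8:117498025-117498274, plus strand): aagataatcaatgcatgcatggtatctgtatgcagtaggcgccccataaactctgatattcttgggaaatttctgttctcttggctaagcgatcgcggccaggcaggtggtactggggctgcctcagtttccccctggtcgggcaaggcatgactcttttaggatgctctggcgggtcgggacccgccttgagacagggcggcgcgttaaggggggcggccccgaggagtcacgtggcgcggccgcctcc
In these 300-base windows (250 bases before to 50 after the start site), the octamer ATGCAAAT, the type of sequence that POU factors such as the tuft cell regulator Pou2f3 bind, and the core of the dioxin response element to which AhR binds, GCGTG, were searched for on both strands. RefSeq windows were matched for 8 of the 10 genes. The octamer occurred in Hpgds, 174 bases upstream of its RefSeq start site, against 1.74% of 32851 mouse windows. The response element core occurred in Il17rb (143 bases upstream, on the other strand) and in Chat (2 bases upstream), 2 of 8 windows, against 32.4% of all windows. The RefSeq start site is not the outermost start in the GENCODE annotation, from which the gene positions in the text were taken, for Hpgds, Chat, Ltc4s or Fyb. The matches in Hpgds and Chat lie within the annotated first exon of those genes, and the window of Fyb lies at an internal start. Neither sequence was in the windows of Ltc4s, Alox5, Ptgs1, Fyb or Plcg2. The GC content of the 8 windows ran from 42.0% (Fyb) to 72.0% (Il17rb). A match is a description of the letters and not a binding site.

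All 10 genes were of low to moderate abundance in this tissue. Per kilobase of exon, which allows genes to be compared, Plcg2 had the highest level in vehicle-treated mice (3.35 ± 0.51 CPM per kb, SD, n = 3) and did not overlap with the next gene. Fyb (2.08 ± 0.43), Ltc4s (1.92 ± 0.17) and Ptgs1 (1.75 ± 0.15 CPM per kb) followed, and neighbours among these 3 overlapped. Alox5 (1.2 ± 0.31), Il17rb (0.994 ± 0.035), Hpgds (0.980 ± 0.243) and Alox5ap (0.778 ± 0.245 CPM per kb) came next, each overlapping with the gene after it up to Alox5ap. Chat (0.375 ± 0.113) and Il25 (0.159 ± 0.143 CPM per kb) were lowest. At 30 μg/kg Plcg2 (5.95 ± 0.34) and Ptgs1 (2.81 ± 1.17 CPM per kb) held the top 2 places, and no mouse of either overlapped with a mouse of the other 8 genes. Fyb and Ltc4s had dropped to 0.840 ± 0.203 and 0.571 ± 0.424 CPM per kb, respectively.

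**Figure D1:**
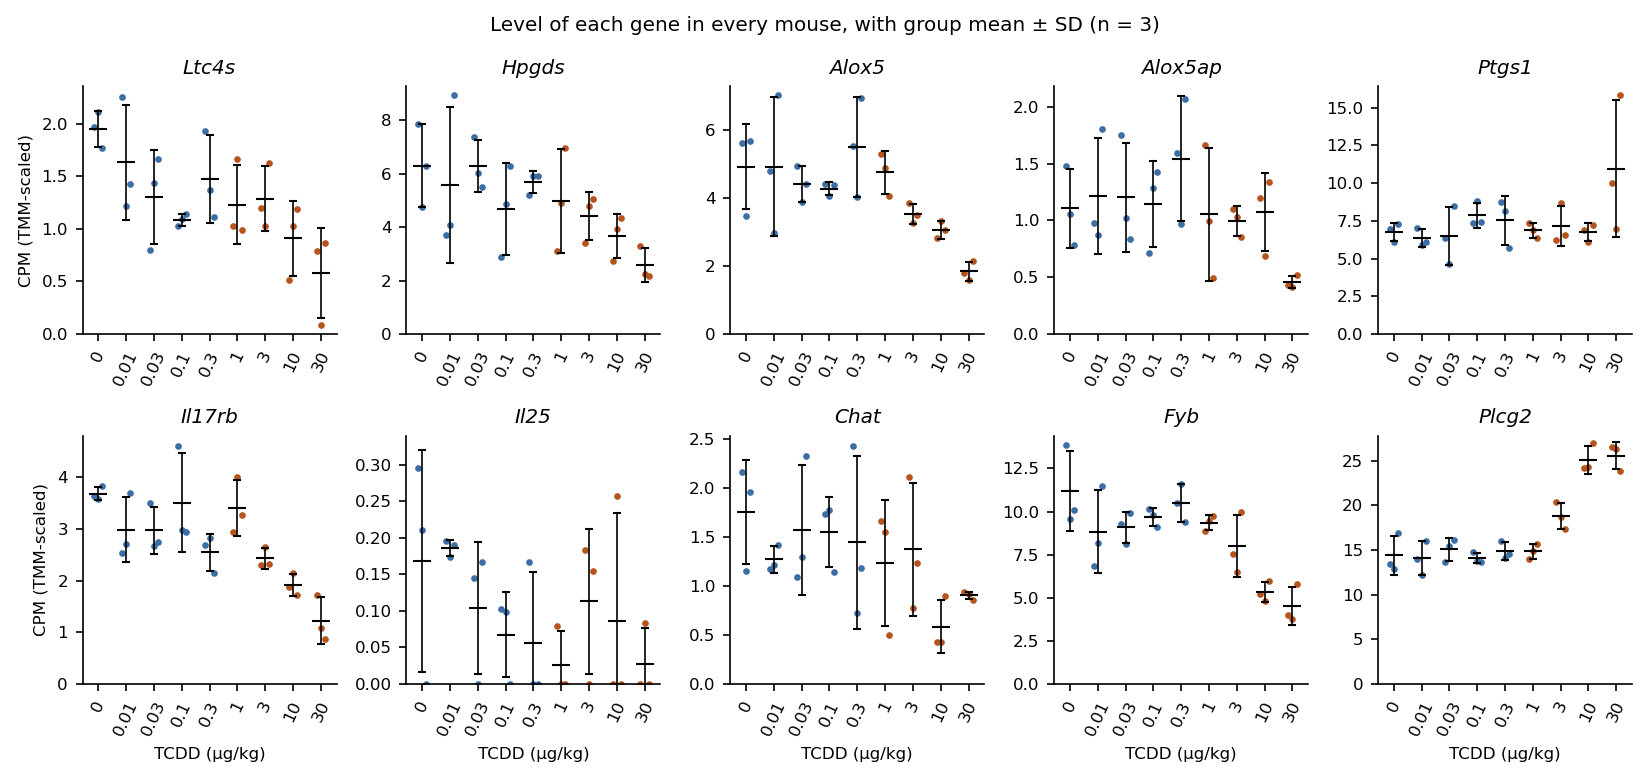
Level of each of the 10 genes (vertical axis, TMM-scaled CPM from 0, 1 scale per panel) at each dose of TCDD (horizontal axis, μg/kg, 0 is vehicle). Points are mice, blue up to 0.3 μg/kg and orange from 1 μg/kg, and bars are the group mean ± SD (n = 3). At 30 μg/kg all 3 mice lie below the 3 vehicle-treated mice in 7 panels, above them for Plcg2, and overlap with them for Ptgs1 and Il25.

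In the leukotriene branch the 3 genes were lower at 30 μg/kg than in vehicle. Alox5 (chr6:116410077-116461178, minus strand, GRCm38) was at 5.61, 3.48 and 5.69 CPM in vehicle-treated mice, 3.86, 3.26 and 3.49 CPM with 3 μg/kg, 2.82, 3.34 and 3.06 CPM with 10 μg/kg and 1.80, 1.59 and 2.15 CPM with 30 μg/kg. Every mouse at 10 and 30 μg/kg was below every vehicle-treated mouse, while the groups overlapped at 3 μg/kg and at each lower dose. The log2 fold change against vehicle was -0.68 ± 0.25 (SE) at 10 μg/kg and -1.42 ± 0.27 at 30 μg/kg, the latter a 2.67-fold lower level.

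Alox5ap (chr5:149264767-149288153, plus strand), which presents arachidonic acid to 5-lipoxygenase, was at 1.48, 1.05 and 0.785 CPM in vehicle-treated mice, 1.19, 0.685 and 1.34 CPM at 10 μg/kg and at 0.431, 0.418 and 0.517 CPM at 30 μg/kg. The 30 μg/kg group alone lay wholly below the vehicle range, with a log2 fold change of -1.26 ± 0.48 at 30 μg/kg against -0.03 ± 0.42 at 10 μg/kg. These levels rest on 5 to 15 reads per mouse in the groups given vehicle and 30 μg/kg. In a fit that also held the index set, whose effect rests on 1 mouse against 2, its log2 fold change at the highest dose was -0.10.

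Ltc4s (chr11:50236461-50238616, minus strand) was at 1.97, 2.11 and 1.77 CPM (20, 20 and 18 reads) in vehicle-treated mice and at 0.791, 0.0836 and 0.862 CPM (11, 1 and 10 reads) at 30 μg/kg. The second mouse at 30 μg/kg had a single read, and without it the log2 fold change moved from -1.72 ± 0.44 to -1.23. The vehicle-treated mice of Ltc4s were close together and high compared with the treated mice. All 3 mice were below them at 0.03, 0.1, 1, 3, 10 and 30 μg/kg, while at 0.01 and 0.3 μg/kg the groups overlapped. The group mean was 66.8, 55.7, 63.1, 65.9, 46.8 and 29.7% of that of vehicle at these 6 doses, respectively, and 83.7 and 75.5% at 0.01 and 0.3 μg/kg. The log2 fold changes were no larger in size than 0.84 up to 3 μg/kg, with a standard error of 0.40 at 3 μg/kg.

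In the prostaglandin branch Hpgds was lower at the highest doses, while the mice overlapped with vehicle for Ptgs1. Ptgs1 (chr2:36230426-36252272, plus strand) was at 6.99, 6.11 and 7.26 CPM in vehicle-treated mice, 6.91, 6.08 and 7.23 CPM with 10 μg/kg and 10.0, 6.94 and 15.9 CPM with 30 μg/kg. The groups overlapped at every dose other than 0.1 μg/kg, where all 3 mice (7.37, 8.81 and 7.42 CPM) were above vehicle, and at 30 μg/kg 2 of 3 mice were above the vehicle range. The log2 fold change was -0.01 ± 0.24 at 10 μg/kg and 0.68 ± 0.23 at 30 μg/kg. Leaving out the third mouse at the highest dose gave 0.33. The 3 mice at 30 μg/kg had the same order in the summed level of 8 genes of stroma and smooth muscle (417, 141 and 703 CPM, against 138 to 168 CPM in vehicle-treated mice). The part of these cells in the level of Ptgs1 was not tested.

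Hpgds (chr6:65117293-65144908, minus strand), whose RefSeq window holds the octamer shown above, was at 7.87, 4.74 and 6.28 CPM in vehicle-treated mice, 3.40, 4.80 and 5.04 CPM with 3 μg/kg, 2.73, 3.94 and 4.33 CPM with 10 μg/kg and 3.31, 2.26 and 2.15 CPM with 30 μg/kg. All mice at 10 and 30 μg/kg were below the vehicle range. The log2 fold change was -0.78 ± 0.33 at 10 μg/kg and -1.28 ± 0.34 at 30 μg/kg, a 2.43-fold lower level. Adding the index set to the fit moved the latter value to -2.22, again by way of 1 mouse against 2 at 1 μg/kg (3.09 against 4.89 and 6.95 CPM).

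The cytokine Il25 and a chain of its receptor were expressed at low levels. Il25 (chr14:54932695-54935837, plus strand) had 0 to 3 reads per mouse, with at least 1 read in 15 of 27 mice. Vehicle-treated mice had 3, 2 and 0 reads and mice at 30 μg/kg had 0, 1 and 0 reads. A count of 3 reads corresponded to between 0.205 and 0.333 CPM, so a difference between doses was not detectable at this depth. Il17rb (chr14:29996135-30008896, minus strand), the receptor chain that binds interleukin-25, was at 3.64, 3.58 and 3.83 CPM in vehicle-treated mice, 2.30, 2.66 and 2.33 CPM with 3 μg/kg, 1.88, 2.14 and 1.72 CPM with 10 μg/kg and 1.73, 1.09 and 0.862 CPM with 30 μg/kg. The mice were below the vehicle range at these 3 doses, and also at 0.03 and 0.3 μg/kg, but at 0.1 and 1 μg/kg 1 mouse each was above it (4.61 and 4.00 CPM). The log2 fold changes of Il17rb at 3, 10 and 30 μg/kg were -0.60 ± 0.23, -0.95 ± 0.23 and -1.56 ± 0.25, and the level at 30 μg/kg was 2.95-fold lower than in vehicle. The lowest of the 15 mice below 1 μg/kg was at 2.15 CPM, and all 6 mice at 10 and 30 μg/kg were below it.

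Chat (chr14:32408203-32465989, minus strand) was lower at 10 μg/kg than at the highest dose by its group mean. It was at 2.16, 1.16 and 1.96 CPM in vehicle-treated mice, 0.427, 0.428 and 0.895 CPM with 10 μg/kg and 0.935, 0.920 and 0.862 CPM with 30 μg/kg. All mice at both doses were below the vehicle range, but the mice at 30 μg/kg lay within the range of the 15 mice below 1 μg/kg (0.726 to 2.43 CPM). The log2 fold change was -1.56 ± 0.49 at 10 μg/kg and -0.96 ± 0.46 at 30 μg/kg. The latter was -0.24 once the index set was in the fit, where its effect rests on 1 mouse against 2 at 1 μg/kg (1.66 against 1.55 and 0.496 CPM). Chat had 5 to 22 reads per mouse in these 3 groups, and the vesicular transporter gene Slc18a3, which lies in its intron, had 0 to 5 reads in any mouse.

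The signalling genes Fyb and Plcg2 went in opposite directions. Fyb (chr15:6522853-6663313, plus strand), encoding an adaptor of T cell receptor and integrin signalling, was at 13.9, 9.59 and 10.1 CPM in vehicle-treated mice, at 7.54, 6.52 and 10.0 CPM with 3 μg/kg, 5.21, 4.79 and 5.97 CPM with 10 μg/kg and 4.03, 3.76 and 5.78 CPM with 30 μg/kg. All 6 mice at 10 and 30 μg/kg were below the lowest of the 15 mice below 1 μg/kg (6.84 CPM). The log2 fold changes of Fyb were -1.07 ± 0.20 and -1.31 ± 0.20 at these doses.

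Plcg2 (chr8:117498291-117635142, plus strand), encoding the enzyme that releases inositol trisphosphate and diacylglycerol, was at 13.4, 12.9 and 16.9 CPM in vehicle-treated mice, 20.3, 18.7 and 17.4 CPM with 3 μg/kg, 24.1, 24.2 and 26.9 CPM with 10 μg/kg and 26.5, 26.3 and 23.9 CPM with 30 μg/kg. Up to 1 μg/kg no group was wholly outside the vehicle range, and from 3 μg/kg on every mouse was above it. The log2 fold changes were 0.38 ± 0.11, 0.80 ± 0.11 and 0.83 ± 0.11 at 3, 10 and 30 μg/kg, and the level at 30 μg/kg was 1.78-fold higher than in vehicle.

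**Figure D2:**
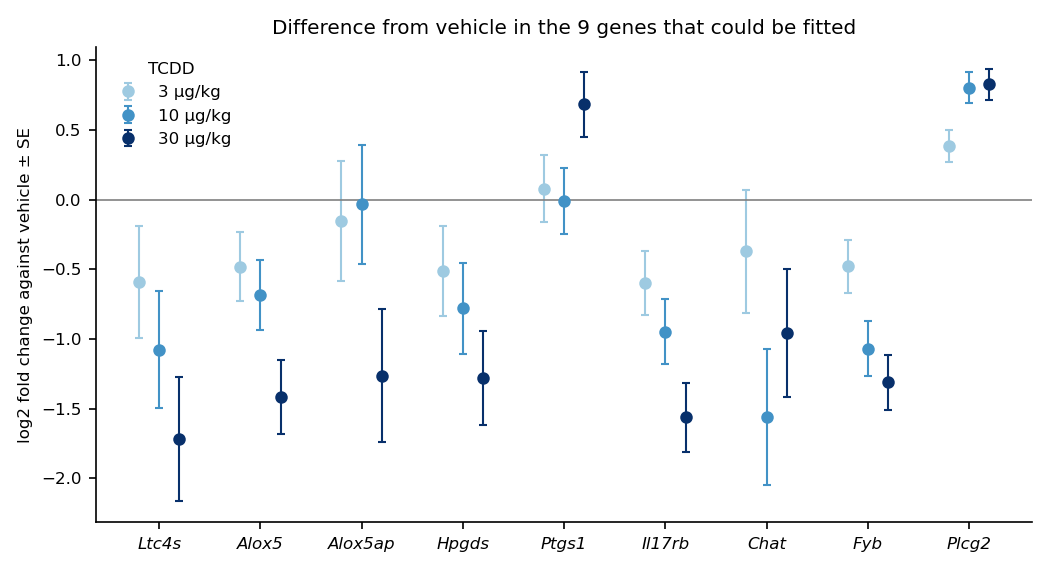
Log2 fold change against vehicle (vertical axis, ± SE of the fit) of the 9 genes that could be fitted (horizontal axis) at 3, 10 and 30 μg/kg TCDD, with 3 mice per group. Plcg2 lies above 0 at all 3 doses, Ptgs1 only at 30 μg/kg by more than its SE, and Chat is lowest at 10 μg/kg.

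Over all 10 genes, the number with every mouse below vehicle was 2, 6 and 7 at 3, 10 and 30 μg/kg. Among the 5 lower doses it was 2 with 0.03 μg/kg, 0 with 0.01 μg/kg and 1 with each of the others. The 0 at 0.01 μg/kg includes the third mouse, which stood apart in clock genes. Among all genes tested every mouse was below vehicle for 11.5, 13.1 and 15.2% at the 3 highest doses and for 5.03, 6.55, 5.95, 6.23 and 7.4% at the lower ones, in rising order. Every mouse was above vehicle for 1 of the 10 genes at 0.1 μg/kg and at each of the 3 highest doses, and for 6.33, 6.75, 6.47, 6.12, 8.78, 13.1, 12.1 and 14.5% of all genes in rising order of dose, and since the genes were chosen on these values nothing is read from their count. The median log2 fold change of the 9 genes fitted was -0.48, -0.78 and -1.28 at the 3 highest doses, beside medians of -0.0026, -0.011 and -0.0022 over all genes tested. The choice of the genes also shaped these medians, so nothing is read from their distance. From 3 to 30 μg/kg, within 1 index set, 6 of the genes were lower in every mouse (7.6% of all genes tested) and Plcg2 was higher in every mouse (7.97%), while Ptgs1, Chat and Il25 overlapped. The log2 differences between these doses ran from -0.77 ± 0.34 for Hpgds to -1.13 ± 0.46 for Ltc4s among the 6, and the difference was 0.44 ± 0.11 for Plcg2.

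Whether the genes varied with tuft cell markers was asked in the 15 mice below 1 μg/kg, all of 1 index set. These mice span 5 dose groups, which were pooled without a term for dose, and the mice at 0.3 μg/kg differed from vehicle in clock genes (given with those genes), so the part of dose in these correlations was not tested. The tuft score was the mean log2 CPM of 16 tuft and chemosensory genes, none of them among the 10. Of 36 relations (9 genes against this score and scores of 8 macrophage, 7 B cell and 10 Hox position genes), 0 passed an adjusted p of 0.05 by Pearson's r (5 had an unadjusted p under 0.05) and 1 by Spearman's rho. With RLE scaling 3 passed by r, Alox5 and Fyb with the tuft score and Hpgds with the B cell score (each with an adjusted permutation p of 0.0448), and with the set 1 mouse at 1 μg/kg added 1 passed, Fyb with the tuft score (adjusted permutation p = 0.0461). Fyb had the highest correlation with the tuft score, with r = 0.721 (permutation p = 0.0021, adjusted p = 0.0514) and rho = 0.779 (permutation p = 0.00106, adjusted p = 0.0382), and 0.37% of all tested genes had an r as high. With the B cell score its r was 0.593 (permutation p = 0.0185, adjusted p = 0.167) and its rho 0.525 (permutation p = 0.0464, adjusted p = 0.329), and r was 0.696 without the 2 farthest mice. Leaving out the 2 mice with the most extreme tuft scores gave an r of 0.741 with the tuft score. For Alox5, r was 0.687 (permutation p = 0.00428, adjusted p = 0.0514) and rho 0.675 (permutation p = 0.00739, adjusted p = 0.0887), and r was 0.551 without the 2 farthest mice.

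Hpgds had its highest correlation with the B cell score (r = 0.71, permutation p = 0.00294, adjusted p = 0.0514; rho = 0.704, permutation p = 0.00437, adjusted p = 0.0787), and r = 0.661 without the 2 farthest mice. Its correlation with the tuft score was r = 0.433 (permutation p = 0.108, adjusted p = 0.341) and rho = 0.432 (permutation p = 0.109, adjusted p = 0.39). Plcg2, which was higher where the tuft score was low among the high doses, had r = 0.554 with the tuft score among these low-dose mice (permutation p = 0.0328, adjusted p = 0.236; rho = 0.479, permutation p = 0.0736, adjusted p = 0.378), and Ptgs1 r = 0.0756 (permutation p = 0.788, adjusted p = 0.902; rho = -0.00714). For Il17rb, Chat, Alox5ap and Ltc4s, r with the tuft score was 0.38, 0.459, 0.372 and 0.221 and rho 0.425, 0.511, 0.3 and 0.189, respectively, with adjusted p-values of r between 0.341 and 0.809 by permutation. Without the third mouse at 0.01 μg/kg, which had the highest tuft score of the 15 (3.51), r was 0.704 for Fyb (adjusted permutation p = 0.0729; rho = 0.771, adjusted permutation p = 0.0662), 0.739 for Hpgds with the B cell score (adjusted permutation p = 0.0729) and 0.588 for Alox5 (adjusted permutation p = 0.194). For Ltc4s, Hpgds, Alox5ap, Ptgs1, Il17rb, Chat and Plcg2, r with the tuft score was then 0.262, 0.254, 0.235, 0.213, 0.3, 0.548 and 0.482.

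**Figure D3:**
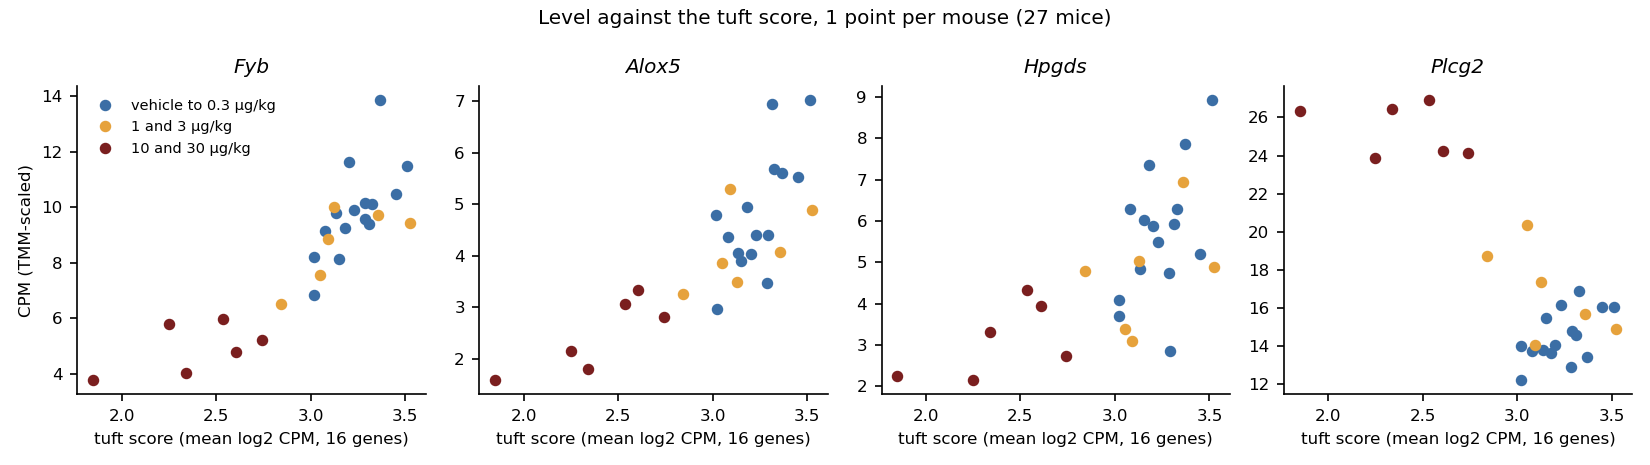
TMM-scaled CPM of Fyb, Alox5, Hpgds and Plcg2 (vertical axes, not starting at 0) against the tuft score (horizontal axis, mean log2 CPM of 16 genes), 1 point per mouse, colored by dose. The 6 mice at 10 and 30 μg/kg have the lowest tuft scores (1.85 to 2.74), with low Fyb and Alox5 and high Plcg2, while the correlations in the text use the 15 blue points alone.

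Across all 27 mice, which fall into dose groups, the genes whose log2 CPM followed each of the 10 most closely were listed as a description of likeness. Fyb was closest to Rgs13 (Pearson's r = 0.912), Sh2d7 (0.905) and Pik3r5 (0.898), and Alox5 to Ang4 (0.909), Sh2d7 (0.881) and Pik3r5 (0.877), so that both had Sh2d7 and Pik3r5 among their 3 closest genes. Il17rb was closest to Trpm5 (0.883), the cation channel of tuft cell taste signalling. Plcg2 was closest to Acta1 (0.937), a muscle actin, Cyp1b1 (0.933), an AhR target, and Exoc3 (0.931). Ptgs1 was closest to Cd93 (0.807), Vsir (0.76) and Foxf1 (0.753), genes known from endothelial, immune and mesenchymal cells, respectively. The highest r was 0.875 for Hpgds (Cep83), 0.804 for Ltc4s (Steap4), 0.787 for Alox5ap (Zfhx3) and 0.699 for Chat (Spa17).

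The rest of the tuft cell program was examined with a list of 20 further genes, of which 16 were tested. This list and those that follow were chosen with earlier results of these data known. Their counts and p-values are therefore a description and not independent evidence. At 30 μg/kg, 10 of the 16 fell and 0 rose, beside 3.21 and 2.95% of all genes tested, and the median log2 fold change was -1.51. The lineage regulator Pou2f3 was at 0.934 ± 0.438 CPM (SD, n = 3) against 2.59 ± 0.41 CPM in vehicle-treated mice (log2 fold change -1.48 ± 0.38, adjusted p = 0.0157), and without the first mouse at 30 μg/kg or the second vehicle-treated mouse its adjusted p was 0.0675 and 0.0587 by edgeR. Without the second mouse at 30 μg/kg Spib had an adjusted p of 0.0576 by edgeR. Trpm5 fell by 1.64 ± 0.18 on the log2 scale, from 21 ± 1.9 to 6.71 ± 1.85 CPM (adjusted p = 4.98e-06), and Dclk1, a kinase used as a tuft cell marker, by 1.59 ± 0.17 (adjusted p = 4.98e-06). The taste G protein Gnat3 and the regulator of G protein signalling Rgs13 had the largest differences, with log2 fold changes of -2.69 ± 0.46 and -2.32 ± 0.42, and without the first mouse at 30 μg/kg that of Gnat3 was -4.18. The log2 fold change of Gnat3 was -1.13 ± 0.40 at 0.01 μg/kg and -0.66 ± 0.38 at 0.03 μg/kg. It was called at neither dose, and at 0.03 μg/kg each mouse was below the vehicle range. At 30 μg/kg Plcb2, Sh2d6, Spib and Avil also fell, with log2 fold changes between -1.71 and -1.07. Of the 6 that did not pass the threshold, the log2 fold change was 0.15 ± 0.08 for Itpr3 (378 ± 34 CPM), -0.07 ± 0.11 for Ptpn18, -0.34 ± 0.19 for Kctd12 and 0.11 ± 0.18 for Tas1r3, and Bmx was at an adjusted p of 0.0501. From 3 to 30 μg/kg, 6 of the 16 fell and 0 rose (0.242 and 0.218% of all genes tested), among them Trpm5 and Dclk1. That count was 2 without the first mouse at 3 μg/kg or without the second or the third at 30 μg/kg, and 3 without the third at 3 μg/kg.

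Eicosanoid genes outside the 10 were counted beside the 6.16% of all genes called at 30 μg/kg, 2.95% higher and 3.21% lower. Of 11 tested phospholipases and lipases that release arachidonic acid or act on its esters, 1 fell and 0 rose at the highest dose (median log2 fold change -0.05). It was Pla2g4c, at 0.934 ± 0.425 CPM against 52.8 ± 72.1 CPM, with vehicle-treated mice at 15.4, 7.06 and 136 CPM (log2 fold change -5.78 ± 1.19, adjusted p = 0.00354). Without the third vehicle-treated mouse it was -3.55 (adjusted p = 0.0469 by edgeR), and with the index set in the fit its adjusted p was 0.111. The lower level of Pla2g4c was not particular to this dose: it was at 3.12 ± 0.38 CPM with 0.03 μg/kg and 2.80 ± 1.44 CPM with 0.1 μg/kg (log2 fold changes -4.08 and -4.24, not called, each mouse below the vehicle range), and it was called at 3 and 10 μg/kg. Pla2g4a, the cytosolic phospholipase A2, had a log2 fold change of -0.32 ± 0.13 (adjusted p = 0.123). Of 13 tested synthesis genes 1 rose, Ptges, the prostaglandin E synthase, from 1.86 ± 0.62 to 7.21 ± 2.33 CPM (log2 fold change 1.95 ± 0.38, adjusted p = 0.00228). Lta4h, which directs leukotriene A4 to leukotriene B4, had a log2 fold change of -0.05 ± 0.07 and Ptgs2, the inducible cyclooxygenase, one of 1.14 ± 0.63 (adjusted p = 0.247).

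Of 10 tested genes of eicosanoid breakdown and transport, 1 rose, Ephx2, the soluble epoxide hydrolase, from 20.8 ± 3.7 to 44.7 ± 5.4 CPM (log2 fold change 1.10 ± 0.17, adjusted p = 0.000232). Ephx2 also passed the test at 10 μg/kg and from 3 to 30 μg/kg, and at 30 μg/kg its adjusted p was 0.0817 with the index set in the fit. The prostaglandin dehydrogenase Hpgd had a log2 fold change of 0.08 ± 0.21. Of 8 tested eicosanoid receptors, 0 were called by edgeR, by DESeq2 or by limma voom (1 had an unadjusted p under 0.05), and Cysltr1, a receptor of the cysteinyl leukotrienes, was at 0.847 ± 0.228 against 0.501 ± 0.162 CPM.

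Of 13 tested ligands and receptors of type 2 immunity, 0 were called at 30 μg/kg by any of the 3 tools (1 had an unadjusted p under 0.05), and the median log2 fold change was -0.04. Il17ra, the partner of Il17rb in the receptor of interleukin-25, had a log2 fold change of -0.16 ± 0.12 (adjusted p = 0.439), and Il13ra1 one of 0.26 ± 0.16. Il13, Il4 and Il5 were too low to be tested. Of 7 tested effector genes 2 fell, beside 3.21% of all genes: Retnlb, a goblet cell protein induced by type 2 cytokines, from 157 ± 102 to 40.2 ± 6.6 CPM (log2 fold change -1.96 ± 0.58, adjusted p = 0.0315), and Sprr2a2 (-0.65 ± 0.20, adjusted p = 0.0401), whose groups overlapped. Sprr2a2 had a log2 fold change of -0.62 ± 0.20 at the lowest dose, 0.01 μg/kg, where it was not called. Without the first or the third vehicle-treated mouse or any of the 3 mice at 30 μg/kg, Retnlb had an adjusted p of 0.0567 to 0.184, and without the first vehicle-treated mouse Sprr2a2 had one of 0.236 (edgeR in each case). With 1 mouse left out, the log2 fold change of Retnlb ran from -2.31 to -1.32.

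Among 9 tested cholinergic genes, 2 rose at 30 μg/kg, beside 2.95% of all genes, the receptors Chrm2 (log2 fold change 3.14 ± 0.78, adjusted p = 0.013) and Chrna3 (3.23 ± 0.73, adjusted p = 0.00657), with 1 to 6 and 0 to 2 reads, respectively, in each vehicle-treated mouse, so that the sizes of these differences rest on few reads. Chrna3 was at 0.712 ± 0.231 CPM with 0.01 μg/kg against 0.103 ± 0.105 CPM in vehicle-treated mice (log2 fold change 2.70 ± 0.78, not called), and its log2 fold change was -0.02 ± 1.04 with 0.03 μg/kg. Without the third vehicle-treated mouse or the third mouse at 30 μg/kg, Chrm2 had an adjusted p of 0.0645 and 0.0528 by edgeR. These receptors are found in smooth muscle and in enteric neurons, and 5 of 6 tested markers of enteric neurons rose as well (1 without the third vehicle-treated mouse or the third mouse at 30 μg/kg, 2 and 3 without the first and the second vehicle-treated mouse). The summed level of the 9 listed neuron markers was 15.5 to 44.4 CPM at 30 μg/kg and 10.5 to 13.2 CPM in vehicle-treated mice. The part of nerve and muscle in these receptors was not tested. The choline transporters Slc44a1 and Slc44a4 had log2 fold changes of -0.10 ± 0.09 and 0.02 ± 0.09. Of 20 tested genes of proximal receptor signalling, the set to which Fyb and Plcg2 belong, 2 fell and 0 rose, beside 3.21 and 2.95% of all genes. The exchange factor Vav1 was among those that fell (log2 fold change -0.86 ± 0.13, adjusted p = 0.00026), and its adjusted p was 0.13 with the index set in the fit. The log2 fold change of Vav1 was -0.28 ± 0.13 at 0.01 μg/kg and -0.41 ± 0.13 at 0.03 μg/kg. It was called at neither dose, but each mouse was below the vehicle range. Plcg1, the paralog of Plcg2, had a log2 fold change of -0.01 ± 0.08, and the adaptor Blnk one of 0.48 ± 0.13, under the fold threshold.

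**Figure D4:**
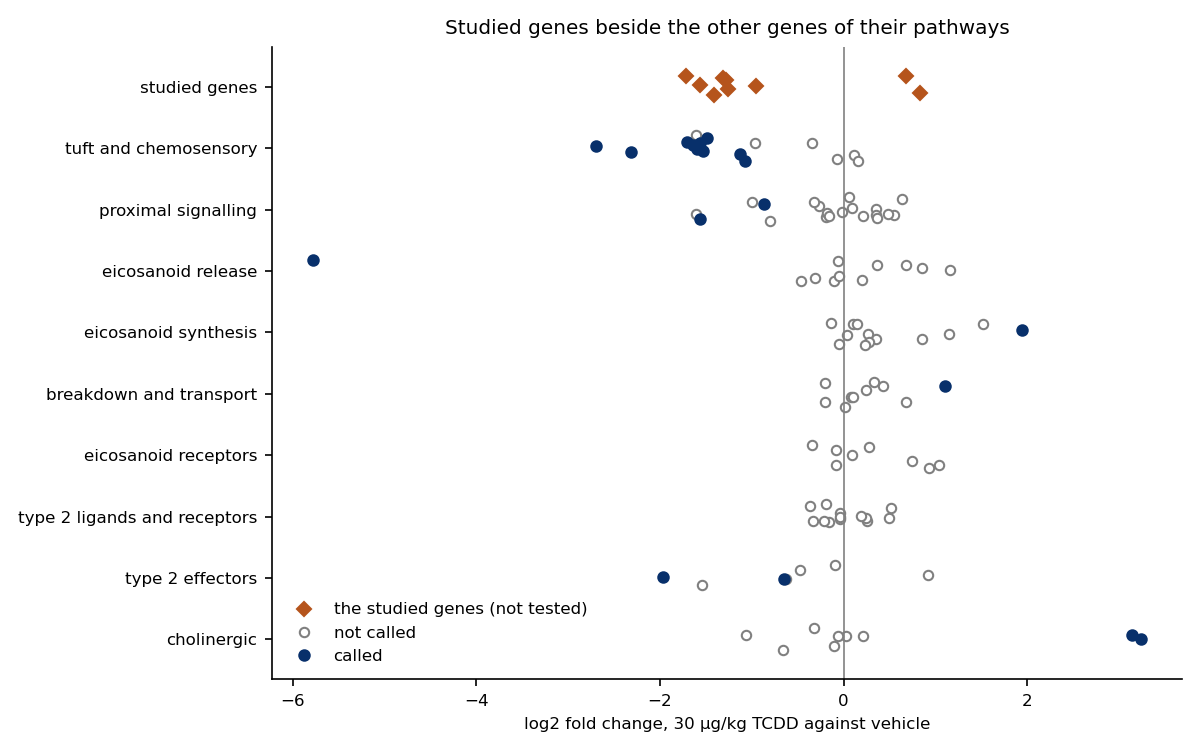
Log2 fold change at 30 μg/kg TCDD against vehicle (horizontal axis) of the 9 genes studied (diamonds, not tested) and of each tested gene in 9 pathway lists (circles, filled where called), 1 row per list, with vertical scatter added for legibility. Filled circles lie left of 0 for 10 of 16 tuft and chemosensory genes, and no other list holds more than 2.

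Immune cells that express some of these genes were followed by their own markers. Of 11 mast cell markers 8 were too low to be tested, with at most 8 reads in any mouse. Of the 3 tested, 2 had a log2 fold change above 0 at 30 μg/kg and 1 below. By edgeR 0 were called (1 had an unadjusted p under 0.05). Kit, at a mean of 159 CPM over all mice, made up most of the summed level and had a log2 fold change of 0.27 ± 0.17. With the other markers far lower, neither Kit nor the summed level is taken as a measure of mast cells. All 8 tested macrophage markers had a log2 fold change above 0 at 30 μg/kg (median 0.52), and 1 rose, beside 2.95% of all genes (C1qc, log2 fold change 1.22 ± 0.34, adjusted p = 0.025; 0 were called without the first or second vehicle-treated mouse or the first or the third mouse at 30 μg/kg, and 2 without the second), and their summed level was 13.9 to 28.8 CPM at 30 μg/kg and 13.7 to 18.6 CPM in vehicle-treated mice. Of 7 B cell and 6 T cell markers tested, 0 were called by edgeR, DESeq2 or limma voom (0 and 1 had an unadjusted p under 0.05). Siglecf, listed for eosinophils and also known from tuft cells, fell (log2 fold change -1.24 ± 0.28, adjusted p = 0.00659). The part of these cells in the levels of the 10 genes was not tested.

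Of 14 clock genes, 13 were called at 30 μg/kg, 9 higher and 4 lower (2.95 and 3.21% of all genes tested), and 10 were called at 1 μg/kg (0.2%). At 0.3 μg/kg 0 were called by edgeR (6 had an unadjusted p under 0.05), but the mice did not overlap with vehicle for 10 of them. These were 4 in the lower and 6 in the higher direction, beside 6.23 and 6.12% of all genes tested. Dbp was at 12.2, 16.7 and 14.7 CPM against 1.77, 2.00 and 1.37 CPM. From 3 to 30 μg/kg 0 of the 14 were called by edgeR, DESeq2 or limma voom (1 had an unadjusted p under 0.05). The groups did not overlap for 2 in the lower and 3 in the higher direction, beside 7.6 and 7.97% of all genes tested. The third mouse at 0.01 μg/kg had Dbp and Arntl (11.8 CPM, against 37.0 to 79.1 CPM in the other 14 mice below 1 μg/kg) in the range of the mice at 1 μg/kg and above. In that mouse Hpgds (8.92 CPM) and Alox5 (7.03 CPM) were the highest of the 15 mice below 1 μg/kg, and Plcg2 was at 16.0 CPM. The part of the clock in the levels of the 10 genes was not tested.

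**Figure D5:**
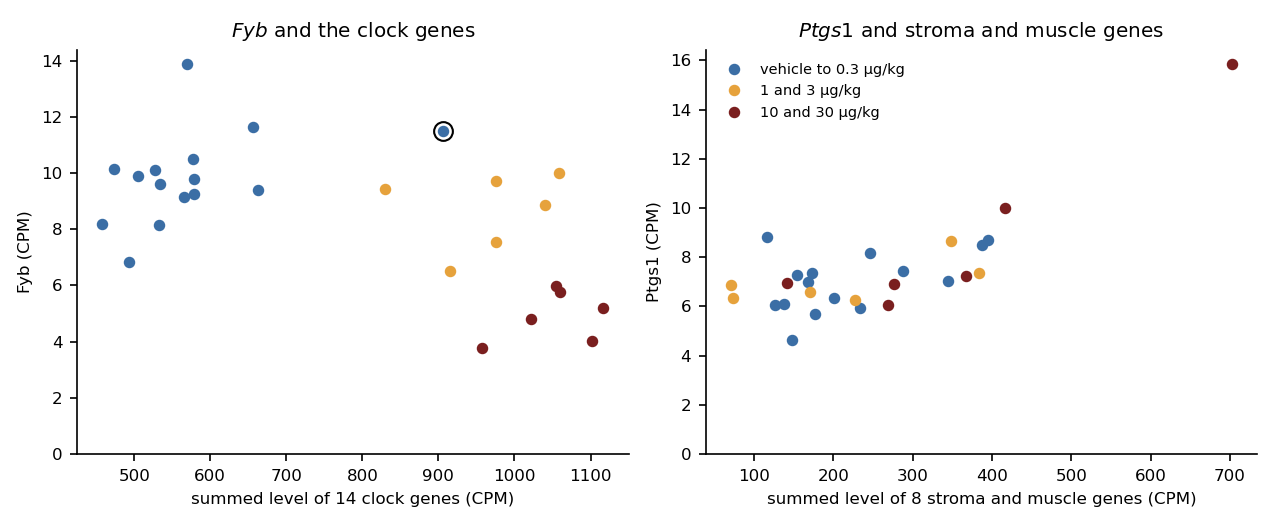
Left, Fyb (CPM) against the summed CPM of 14 clock genes, 1 point per mouse, with the third mouse at 0.01 μg/kg circled; right, Ptgs1 (CPM) against the summed CPM of 8 stroma and muscle genes. The circled mouse has 906 CPM of clock genes and 11.5 CPM of Fyb, and the mouse with the highest Ptgs1 (15.9 CPM) has the highest summed stroma and muscle level (703 CPM).

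Where exons of another gene lie on the opposite strand, the count of either gene may be affected if strand was not used in counting, in a direction not known here. This concerned Il17rb, which overlaps with Actr8 (163 to 310 reads per mouse), Fyb with the antisense gene Gm2245 (34 to 80 reads), Ltc4s with Gm26542 (1 to 14 reads), and Alox5ap and Ptgs1 with genes of at most 3 and 6 reads. The reads of Il17rb numbered 10 to 48 per mouse and those of Ltc4s 1 to 23.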

How the data were processed

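RNA from colonic epithelium of 27 mice was sequenced from total RNA libraries. The deposited files hold raw read counts per Ensembl gene, which the authors made with HTSeq 0.6.1 from reads trimmed with Trimmomatic 0.33 and aligned to GRCm38 with TopHat2 2.1.0, per the submitters' processing notes. The annotation and the strand setting are not given in the sources used here. Reads assigned to no gene were left out of the library sizes, as were those aligned to several places. Genes were filtered with a minimum count of 10, scaled by TMM and fitted in 1 model of 9 groups by the quasi-likelihood test of edgeR 4.0.16 (R 4.3.3), with Benjamini-Hochberg adjustment over 16496 genes. The p-values of edgeR compare a difference between groups with the spread between mice, estimated over the 9 groups together. Those of the correlations come from shuffling mice across the pooled dose groups. Alternatives were DESeq2 1.42.0, limma 3.58.1 voom (calls at a posterior from 0.8 up), other scaling, filter and samples, and an index set term. The steps were tested on simulated data. The genes and lists were chosen with earlier results of these data known. The pathway genes named are those called, with the more abundant or closely related of the others, some chosen after their values were seen. Correlations used 100000 permutations, two-sided. Floors cover counting error only. Replicate pairs differed by more than sampling noise in all 27 cases. The values of 1 listed gene are not reported here.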

Additional observations from a re-analysis of the deposited data

How the results depend on the processing

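At 30 μg/kg against vehicle, no log2 fold change of the 9 genes or of the called pathway genes reversed. For single genes the differences at other doses, and those from 3 to 30 μg/kg, were not computed again. The correlation of Alox5 with the macrophage score went from -0.155 to 0.0364 without the third mouse at 0.01 μg/kg, and with 16 mice that of Hpgds with the macrophage score went from 0.0128 to -0.156, of Chat with the Hox score from -0.058 to 0.00332 and of Fyb with the Hox score from 0.0797 to -0.00513. Among the differences of the 9 genes at 30 μg/kg, 112 of the alternative values moved by less than 1 SD between mice (log2 CPM, over both groups) and 4 by more: with a term for the index set -2.22 for Hpgds, -0.10 for Alox5ap and -0.24 for Chat, and -1.91 for Il17rb without the first mouse at 30 μg/kg. The 1016 genes called at 30 μg/kg became 218 with limma voom, 662 with only the 2 groups compared and 590 to 1084 with 1 mouse left out. From 3 to 30 μg/kg the 76 genes became 151 with DESeq2, 42 with limma voom, 148 with no filter on low counts and 33 to 142 with 1 mouse left out. The 18 pathway genes called became 10 with limma voom, 11 with the index set term and 16 to 20 with 1 mouse left out, and the 10 tuft genes 9 to 11. The release list went from 1 to 0 with limma voom and with the index set term, to 2 with no filter and with only the 2 groups, and to 1 to 2 with 1 mouse left out. The breakdown list went from 1 to 0 with the index set term. The effector list went from 2 to 0 with limma voom, 1 with only the 2 groups, 0 with the index set term and 0 to 3 with 1 mouse left out. The cholinergic list went from 2 to 0 with limma voom, 1 with only the 2 groups, 1 with the index set term and 1 to 3 with 1 mouse left out. The 0 correlations past the threshold became 1 with 16 mice and 3 with RLE scaling. The cause of these moves was not tested. Without the third mouse at 0.01 μg/kg, an alternative chosen after seeing the data, 1078 genes were called. No paired analysis was possible because the mice are numbered individually, with no number common to any pair of groups. Depth limits Il25, Ltc4s, Alox5ap and Chat most, with 1 to 29 reads per mouse for the latter 3.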
